A study of Mus musculus with 6 samples.

Results

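Keratin-associated proteins (KAPs) are the matrix proteins of the hair shaft. They are made late in the differentiation of cortex and cuticle cells and join the keratin filaments to each other through disulfide bonds between cysteines. The genes, named Krtap with a subfamily number and a member number, lie in clusters, and their subfamilies are grouped by protein composition into high-sulfur, ultra-high-sulfur and high-glycine-tyrosine classes. In mouse skin they are transcribed in follicles that are growing a shaft, and little in resting ones. The genes described here are those of the deposited table whose name starts with Krtap and whose chromosome is not 16. There were 33 such genes among 33308 in the table, and 57 Krtap genes in all. Of the 33, 23 lay on chromosome 11, 5 on chromosome 7, 3 on chromosome 10 and 2 on chromosome 1, and they carried 13 subfamily numbers.

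RNA-seq had been done on skin of mice treated for 42 days with osimertinib, a kinase inhibitor aimed at mutant EGFR (3 libraries), and on skin of untreated control mice (3 libraries). The question of the series is what accompanies the skin problems caused by this drug. The labels give no strain, sex, age, dose or body site, and they do not say whether each library is a separate animal. The p-values therefore cover only the variation among these 6 libraries, which may be technical. Levels are CPM, the counts relative to a library size that edgeR's TMM method adjusts, unless given as FPKM, the authors' length-corrected values. Fold changes are osimertinib over control on the log2 scale.

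Library totals ran from 59877553 to 60719064 counts in the osimertinib group and from 54112624 to 57174797 in the control group. Where a gene had no count, its level could still have been as high as that of 3 counts, or 0.047 to 0.0515 CPM in the osimertinib libraries and 0.0467 to 0.0642 CPM in the controls, for counting error only. All 6 listed epidermal markers and all 5 dermal fibroblast markers had counts in every library. The listed skeletal muscle genes took 4.09% to 6.89% of the count in osimertinib libraries, and 4.41%, 12.7% and 0.0287% in controls 1, 2 and 3. The adipocyte list took 0.077% to 0.183% in osimertinib libraries and 0.054% to 0.267% in controls. The epidermal list took 1.12% to 2.08% in osimertinib libraries and 0.961% to 3.86% in controls. The part of this tissue make-up in the results below was not tested.

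All 33 genes have a single exon in GENCODE release M21. Cysteine codons made up 14.6% of the coding sequence in Krtap29-1 and 42.9% in Krtap28-10, the ends of the range, and more than 30% in 21 of the 33 genes, of which 3 lay between 30% and 31%. The stretches of 20 codons below are the most cysteine-rich of each coding sequence and show how densely cysteine is encoded in genes the results turn on. They are on GRCm38, from GENCODE M21 transcripts, with cysteine codons in capitals.
Krtap28-13, chr1:83061197-83061256, plus strand: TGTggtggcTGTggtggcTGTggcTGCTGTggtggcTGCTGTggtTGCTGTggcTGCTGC
Krtap17-1, chr11:99993817-99993876, minus strand: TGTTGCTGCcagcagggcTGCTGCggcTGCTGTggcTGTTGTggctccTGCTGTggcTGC
Krtap4-7, chr11:99643637-99643696, minus strand: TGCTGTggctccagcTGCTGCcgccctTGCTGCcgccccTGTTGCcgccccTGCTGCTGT
Krtap5-5, chr7:142229768-142229827, minus strand: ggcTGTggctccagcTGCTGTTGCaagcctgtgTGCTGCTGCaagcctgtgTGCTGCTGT
Krtap1-5, chr11:99580603-99580662, minus strand: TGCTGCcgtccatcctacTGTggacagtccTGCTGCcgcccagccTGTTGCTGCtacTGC
Krtap10-4, chr10:77826917-77826976, minus strand: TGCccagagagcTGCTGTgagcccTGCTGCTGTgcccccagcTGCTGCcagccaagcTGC
Krtap3-1, chr11:99566389-99566448, minus strand: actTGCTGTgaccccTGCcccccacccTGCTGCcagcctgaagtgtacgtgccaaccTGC
Krtap3-2, chr11:99556606-99556665, minus strand: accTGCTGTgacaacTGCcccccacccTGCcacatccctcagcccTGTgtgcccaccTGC
Krtap3-3, chr11:99550615-99550674, minus strand: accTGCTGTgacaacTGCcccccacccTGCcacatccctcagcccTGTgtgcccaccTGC
The stretch of Krtap17-1 has 12 cysteine codons of 20, that of Krtap4-7 has 11, and the stretches of the 3 Krtap3 genes have 6 each. The stretches of Krtap3-2 and Krtap3-3 are the same letter for letter. Of all windows of 150 bases in the transcript, the length of 1 read, 20.86% of Krtap3-2 occurred in Krtap3-3 and 31.35% of Krtap3-3 in Krtap3-2. In all, 12 of the 33 transcripts shared at least 1 such window with another gene, among them Krtap31-1 with Krtap31-2 (23.06% of its windows) and Krtap4-13 with the predicted genes Gm11554 and Gm11569 (51.2%). The sources used here do not say how reads of such stretches were divided, so the values of these 12 genes are less certain. Krtap10-10 overlaps an exon of Gm2696 on the same strand and shared 36.3% of its windows with it, and all 3 chromosome 10 genes lie inside the gene Tspear.

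Skin of osimertinib-treated mice held more KAP transcripts than control skin, and the treated libraries differed widely, osimertinib 2 being 11.9-fold above osimertinib 1. The summed level of the 33 genes was 64.0, 762 and 43.4 CPM in osimertinib libraries 1, 2 and 3, against 13.6, 28.7 and 15.9 CPM in controls 1, 2 and 3. The lowest osimertinib library lay above the highest control, 1.51-fold higher. The mean log2 sum was 7.00 ± 2.24 in osimertinib and 4.20 ± 0.57 in control libraries (SD, n = 3 each), a difference of 2.80, or 1.52 without osimertinib 2. In bulk tissue, more shaft-forming cells and more RNA per cell cannot be told apart.

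Single genes were not called. Among all 25182 genes with at least 10 counts in total, edgeR's quasi-likelihood test with Benjamini-Hochberg adjustment called 0 (0.0%), and 2876 had an unadjusted p under 0.05 (11.4%; 6.31% of all genes with the osimertinib group higher). All 33 KAP genes were among those tested, 0 were called, and 25 had an unadjusted p under 0.05, with adjusted p of 0.221 to 0.703 over the 33. Without osimertinib 2 the number under 0.05 was 9, beside 7.53% of all genes tested in that fit. It was 15 without control 1 (6.92% of all genes) and 15 without control 3 (12.2% of all genes). DESeq2 called 4.79% of the genes it gave an adjusted p (2.77% as higher) and 5 of the 33, namely Krtap31-1, Krtap4-13, Krtap4-8, Krtap5-1 and Krtap9-5, and it gave no adjusted p for 14 of the 33.

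The log2 fold change was above 0 for all 33 genes, beside 46.8% of all genes tested. Their median was 5.57, or 5.15 when the 3 genes without any control count were given their lower bound, beside −0.0429 over all genes. The median was 2.91 without osimertinib 2, where 31 of 32 tested genes were above 0 beside 47.5% of all genes. Without control 2 it was 10.65, but 27 genes were then at 0 in both controls left. That value depends on how a control group at 0 is fitted. In 23 of the 33 genes every osimertinib library lay above every control, beside 10% of all genes. In the other 10, osimertinib 3 lay at or below control 2.

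**Figure D1:**
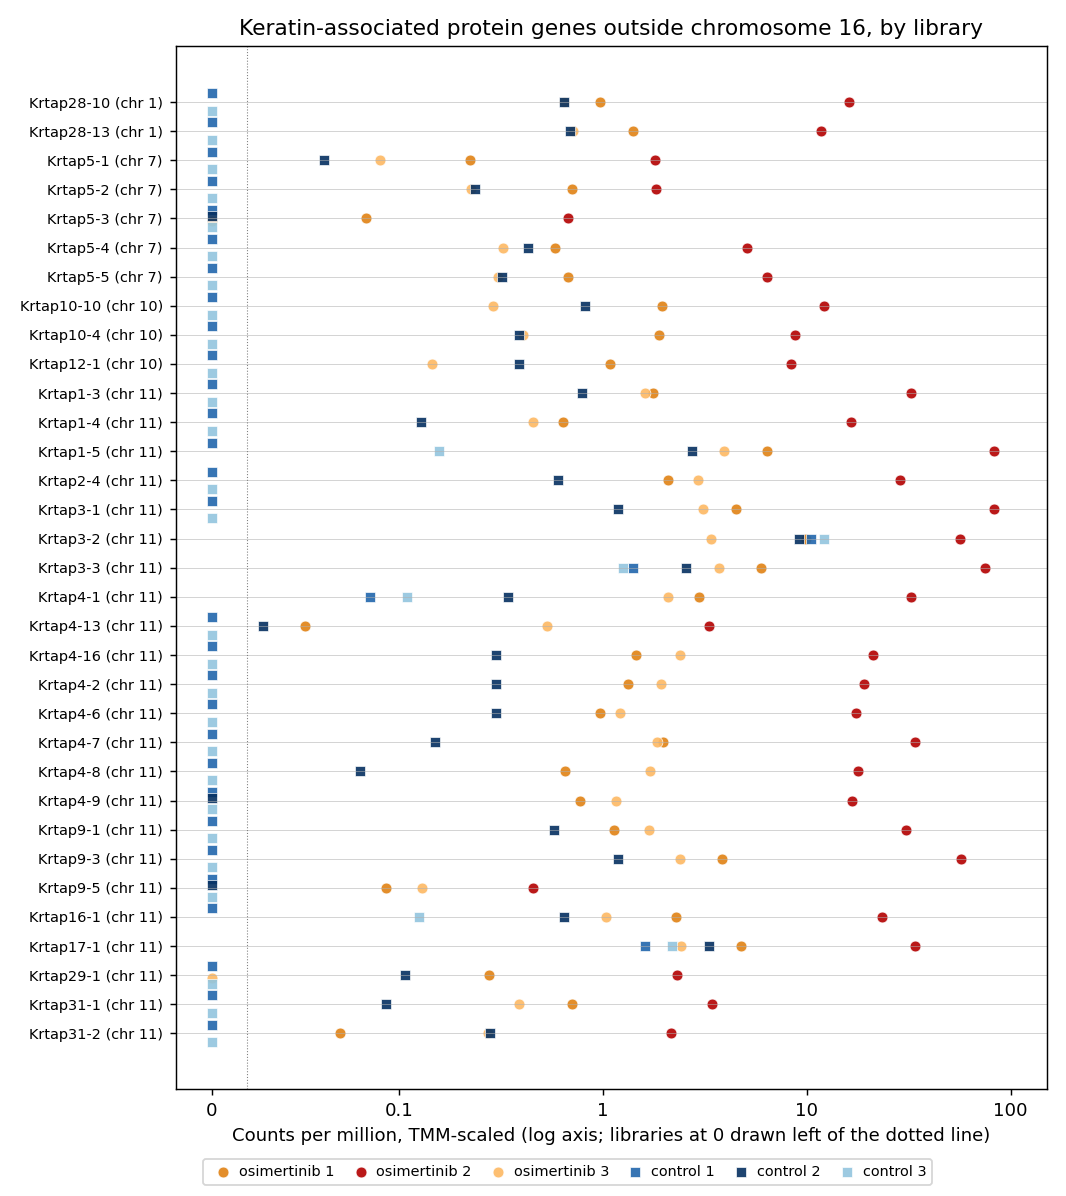
CPM of each of the 33 genes (rows, grouped by chromosome) in each library on a log axis, with osimertinib libraries as circles and controls as squares, and libraries at 0 placed left of the dotted line. Osimertinib 2 is the highest library in all 33 rows, and controls 1 and 3 are at 0 in 27 rows.

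The 3 controls were not alike. Counts were found for 33, 33 and 31 of the 33 genes in osimertinib 1, 2 and 3, and for 4, 30 and 6 of them in controls 1, 2 and 3. Both control 1 and control 3 were at 0 for 27 genes. Control 2, the library with the most muscle RNA, thus sets the control level of most KAP genes. On the osimertinib side, osimertinib 2 was the highest library for all 33 genes and supplied between 66.1% (Krtap5-2) and 93.8% (Krtap1-4) of the CPM summed over the osimertinib libraries.

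Krtap1, Krtap2 and Krtap3 are high-sulfur subfamilies of chromosome 11. On the length-corrected FPKM scale, Krtap3-1 was at 6.20, 125 and 4.52 in osimertinib libraries 1 to 3, against 0, 1.35 and 0 in controls 1 to 3. Its mean of 45.2 FPKM was the highest of the 33 in the osimertinib group, followed by Krtap3-3 (34.7), Krtap1-5 (27.0), Krtap9-3 (25.1) and Krtap3-2 (20.3). The lowest were Krtap5-3 (0.135) and Krtap9-5 (0.181). Because osimertinib 2 dominates each mean, neighbours in this order do not differ beyond the spread between libraries.

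In CPM, Krtap1-5 was at 6.37, 82.8 and 3.93 in osimertinib libraries and at 0, 2.72 and 0.156 in controls (log2 fold change 5.04 ± 1.93, SE). Krtap1-3 was at 1.75, 32.6 and 1.61 in osimertinib libraries and at 0, 0.792 and 0 in controls (5.55 ± 2.06). Krtap1-4 was at 0.636, 16.4 and 0.451 in osimertinib libraries and at 0, 0.128 and 0 in controls (7.16 ± 2.07). The 3 Krtap1 genes, which encode high-sulfur proteins of the cortex, therefore kept all osimertinib libraries above all controls, with control 2 nearest. Krtap2-4, the one Krtap2 gene, was at 2.08, 28.7 and 2.92 CPM in osimertinib libraries and at 0, 0.600 and 0 in controls (5.87 ± 1.9). Krtap3-1 was at 4.47, 82.6 and 3.11 CPM in osimertinib libraries and at 0, 1.18 and 0 in controls (6.31 ± 2.16). For both genes the groups did not overlap either. Over all genes tested, 10% had groups apart in this direction.

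Krtap3-2 did not share this pattern. It was at 9.91, 56.5 and 3.40 CPM in osimertinib libraries and at 10.5, 9.19 and 12.1 CPM in controls, so that osimertinib 3 lay below every control and only osimertinib 2 stood above all of them. Its log2 fold change was 1.14 ± 0.90 (SE), the lowest of the 33, and −0.66 without osimertinib 2. Its neighbour Krtap3-3 was at 5.98, 74.8 and 3.69 CPM in osimertinib libraries and at 1.40, 2.55 and 1.26 CPM in controls (4.02 ± 1.21). Since these 2 genes share part of their sequence, how their shared reads were split bears on both values and was not tested. As a percent of Krtap3-1 and Krtap3-3 together, Krtap3-2 was at 94.9, 35.9 and 50.0 in osimertinib libraries, against 753, 247 and 957 in controls.

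Krtap17-1 encodes an ultra-high-sulfur protein and was also present in every control. It was at 4.74, 34 and 2.42 CPM in osimertinib libraries and at 1.61, 3.30 and 2.18 CPM in controls (log2 fold change 2.54 ± 0.98, SE), with osimertinib 3 below control 2. It shared no 150-base window with another gene. Krtap3-2, Krtap3-3 and Krtap17-1, picked out after their values were seen, made up nearly all of the KAP count in controls 1 and 3. The other 30 genes together were at 43.3, 597 and 33.9 CPM in osimertinib libraries, against 0.0717, 13.7 and 0.389 CPM in controls. On the log2 scale the difference of group means is 7.04 for those 30 genes and 2.80 for all 33. For the 30 genes the mean log2 sum was 6.58 ± 2.29 in osimertinib and −0.46 ± 3.87 in control libraries (SD, n = 3 each). Control 1 held only 4 counts of them, all of Krtap4-1. Relative to control 2 alone, osimertinib 1, 2 and 3 were at 3.16, 43.5 and 2.47 times its level.

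**Figure D2:**
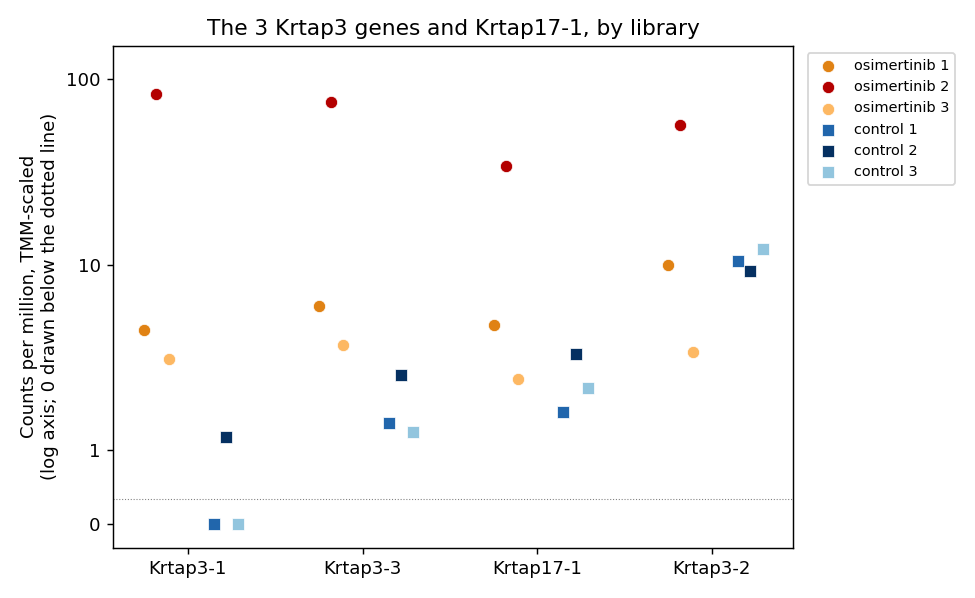
CPM of the 3 Krtap3 genes and Krtap17-1 in each library on a log axis, osimertinib (circles) left of control (squares) for each gene, with 0 drawn below the dotted line. Krtap3-1 is at 0 in controls 1 and 3, whereas Krtap3-2 is at 9.19 to 12.1 CPM in the controls, above osimertinib 3.

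Krtap4 and Krtap9, ultra-high-sulfur subfamilies of the same chromosome 11 cluster, had low control levels. The 8 Krtap4 genes summed to 10.1, 162 and 12.9 CPM in osimertinib libraries, against 0.0717, 1.48 and 0.109 CPM in controls. In all 8 the groups did not overlap, beside 10% of all genes. For Krtap4-13 this rests on 2 counts in osimertinib 1 (0.0344 CPM), below the 3-count floor of the controls (0.0467 to 0.0642 CPM). The log2 fold changes of the 8 genes ran from 6.10 to 11.51. The highest is the fitted value of Krtap4-9, whose controls are all at 0. Krtap4-1, with the smallest p of the 33, was at 2.95, 32.5 and 2.08 CPM in osimertinib libraries and at 0.0717, 0.343 and 0.109 CPM in controls (6.18 ± 1.38, SE, adjusted p = 0.221). Krtap4-7 was at 1.96, 34 and 1.85 CPM in osimertinib libraries and at 0, 0.150 and 0 in controls (8.07 ± 1.92). Krtap4-16 was at 1.46, 21.2 and 2.40 CPM in osimertinib libraries and at 0, 0.300 and 0 in controls (6.46 ± 1.81). Krtap4-2 and Krtap4-6 had the same 0, 0.300 and 0 CPM in controls, with 1.32, 19.0 and 1.92 CPM (Krtap4-2) and 0.962, 17.4 and 1.21 CPM (Krtap4-6) in osimertinib libraries.

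For several Krtap4 genes the controls held next to nothing. Krtap4-8 was at 0.653, 17.8 and 1.71 CPM in osimertinib libraries and had 3 counts in all controls together, and its count ratio was 386 (95% exact binomial interval 132 to 1880). Krtap4-9 was at 0.773, 16.7 and 1.16 CPM in osimertinib libraries and at 0 in all controls, at least 357-fold higher against a floor of 3 counts over the control group. Krtap4-13 was at 0.0344, 3.30 and 0.532 CPM in osimertinib libraries and had 1 control count, and its ratio was 223 (39.6 to 8830). These intervals and the bound of Krtap4-9 pool the counts of each group and cover counting error only, not the spread between libraries.

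Among Krtap9 genes, Krtap9-3 was at 3.83, 56.8 and 2.38 CPM in osimertinib libraries and at 0, 1.18 and 0 in controls (5.79 ± 2.11, SE). Krtap9-1 was at 1.13, 30.6 and 1.68 CPM in osimertinib libraries and at 0, 0.578 and 0 in controls (5.91 ± 2.07). Krtap9-5 was at 0.0859, 0.454 and 0.129 CPM in osimertinib libraries and at 0 in all controls. With counts pooled within each group, it was at least 12.7-fold higher on the same floor, for counting error only. The 3 genes had separate groups, beside 10% of all genes. For Krtap9-5 this rests on 5, 29 and 8 counts in osimertinib 1, 2 and 3. By coding sequence Krtap9-3 is less rich in cysteine codons (27.2%) than Krtap9-1 (37.6%) and Krtap9-5 (33.2%).

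Of the remaining chromosome 11 genes, Krtap16-1 was at 2.28, 23.4 and 1.03 CPM in osimertinib libraries and at 0, 0.642 and 0.125 CPM in controls (5.15 ± 1.70, SE). Krtap31-1 was at 0.704, 3.41 and 0.387 CPM in osimertinib libraries and at 0, 0.0857 and 0 in controls (5.76 ± 1.49), and its near copy Krtap31-2 at 0.0515, 2.16 and 0.274 CPM in osimertinib libraries and at 0, 0.278 and 0 in controls (3.20 ± 1.85). The order of the 2 copies differed between libraries, Krtap31-2 being the lower in all 3 osimertinib libraries and the higher in control 2. Krtap29-1 was at 0.275, 2.32 and 0 CPM in osimertinib libraries and at 0, 0.107 and 0 in controls (4.64 ± 2.11), so its groups overlapped.

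**Figure D3:**
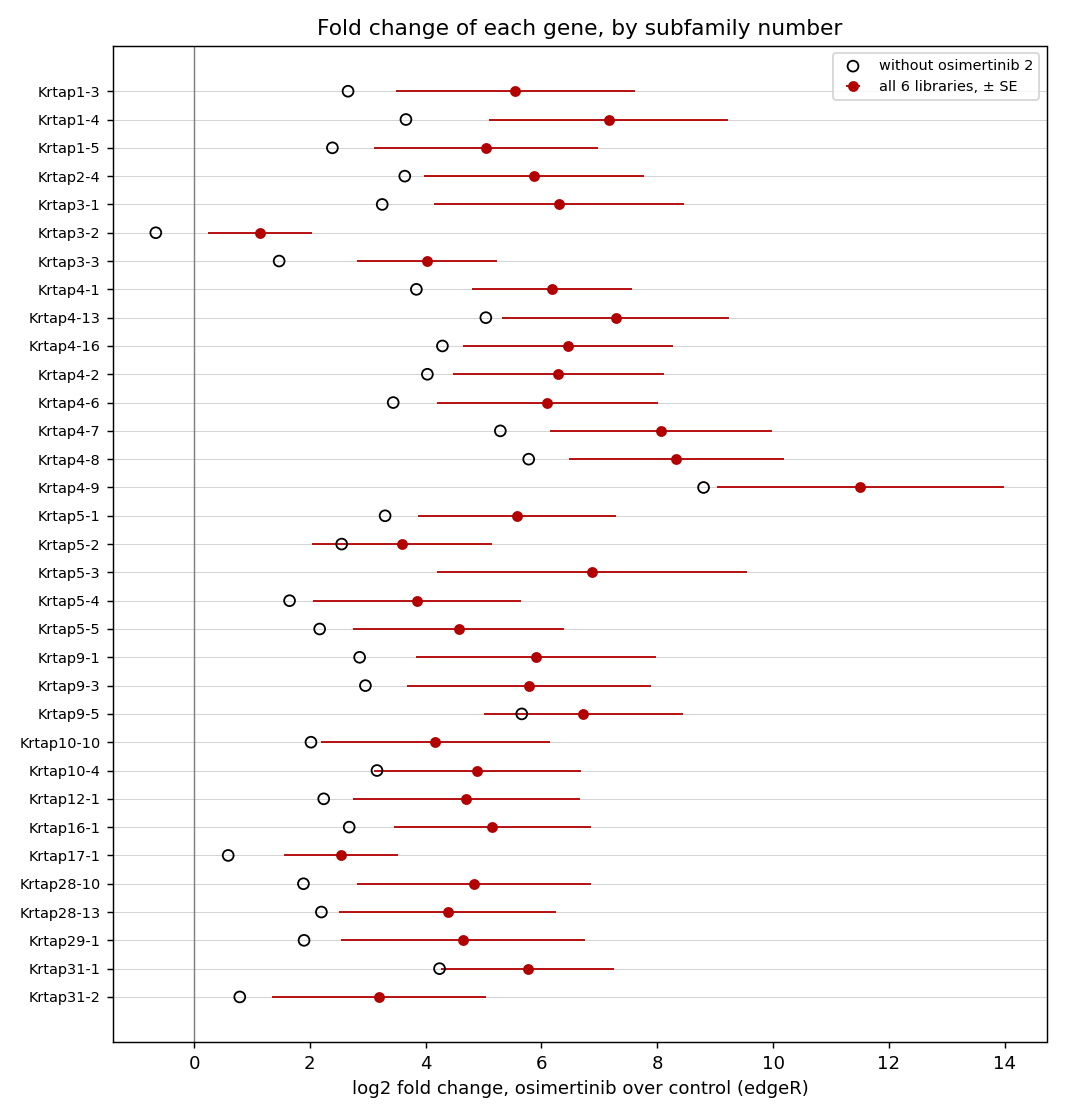
The edgeR log2 fold change of each gene, osimertinib over control, with its SE (filled points, all 6 libraries) and without osimertinib 2 (open circles; Krtap5-3 was then not tested), in order of subfamily number. Every filled point lies above 0, and Krtap3-2 is at −0.66 without osimertinib 2. The points of Krtap4-9, Krtap5-3 and Krtap9-5 depend on how a control group at 0 is fitted.

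Genes on the other 3 chromosomes were higher in osimertinib libraries 1 and 2 than in all controls, but osimertinib 3 was at the level of control 2 or under it for most. In 4 of these 10 genes the groups did not overlap, against 19 of the 23 on chromosome 11 and 10% of all genes. Such counts depend on the scaling. With DESeq2 size factors 20 of the 33 genes had separate groups, beside 2469 of all 25182 genes. Krtap28-10 and Krtap28-13 of chromosome 1, whose coding sequences are the richest in cysteine, were at 0.962, 16.1 and 0.644 CPM and at 1.41, 11.8 and 0.709 CPM in osimertinib libraries. In controls they were at 0, 0.642 and 0 CPM and at 0, 0.685 and 0 CPM, and their log2 fold changes were 4.83 ± 2.02 and 4.38 ± 1.88 (SE). For both, osimertinib 3 was within 5% of control 2, so their groups were barely apart.

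On chromosome 10, Krtap10-4 was at 1.89, 8.72 and 0.403 CPM in osimertinib libraries and at 0, 0.385 and 0 in controls (4.89 ± 1.79, SE). Its groups were also barely apart, with osimertinib 3 at 1.04 times control 2. Krtap10-10 was at 1.94, 12.1 and 0.290 CPM in osimertinib libraries and at 0, 0.814 and 0 in controls (4.17 ± 1.98). Krtap12-1 was at 1.08, 8.41 and 0.145 CPM in osimertinib libraries and at 0, 0.385 and 0 in controls (4.70 ± 1.96). For the last 2 genes osimertinib 3 was below control 2, at 0.356 and 0.376 of its level.

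On chromosome 7, the 5 Krtap5 genes, ultra-high-sulfur genes known from the hair cuticle, summed to 2.25, 15.7 and 0.934 CPM in osimertinib libraries, against 0, 1.03 and 0 CPM in controls. Krtap5-5 was at 0.670, 6.36 and 0.306 CPM in osimertinib libraries and at 0, 0.321 and 0 in controls (4.57 ± 1.82, SE). Krtap5-4 was at 0.584, 5.09 and 0.322 CPM in osimertinib libraries and at 0, 0.428 and 0 in controls (3.85 ± 1.79). Among these 5 genes only Krtap5-1 had separate groups, beside 10% of all genes. It was at 0.223, 1.80 and 0.0805 CPM in osimertinib libraries and at 0, 0.0428 and 0 in controls (5.57 ± 1.71). Its separation rests on 5 counts in osimertinib 3 against 2 in control 2. Krtap5-2 was at 0.704, 1.82 and 0.226 CPM in osimertinib libraries and at 0, 0.236 and 0 in controls (3.59 ± 1.56). Krtap5-3 was at 0.0687, 0.673 and 0 CPM in osimertinib libraries and at 0 in all controls. With counts pooled within each group, it was at least 14.2-fold higher against the floor of 3 counts over the control group. That bound covers counting error only, and 43 of the 47 osimertinib counts came from osimertinib 2. Osimertinib 3 was at 0 like the controls, so the groups overlapped.

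The treated libraries differed from each other in the shares of the subfamilies. Relative to osimertinib 1, osimertinib 3 had 0.170 times the summed level of the chromosome 10 genes, 0.415 times that of chromosome 7, 0.571 times that of chromosome 1 and 0.740 times that of chromosome 11. In none of the 10 genes outside chromosome 11 was osimertinib 3 above osimertinib 1, whereas it was in 10 of 23 on chromosome 11, among them 6 of 8 Krtap4 genes. These are single libraries, so no test of the difference between chromosomes is possible. Krtap4 took 15.8%, 21.2% and 29.6% of the KAP sum in osimertinib libraries 1, 2 and 3, and 5.14% in control 2. Krtap10 took 5.99%, 2.73% and 1.60% in osimertinib libraries and 4.17% in control 2. Krtap3 took 31.8%, 28.1% and 23.5% in osimertinib libraries, against 87.6%, 44.9% and 83.8% in controls.

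**Figure D4:**
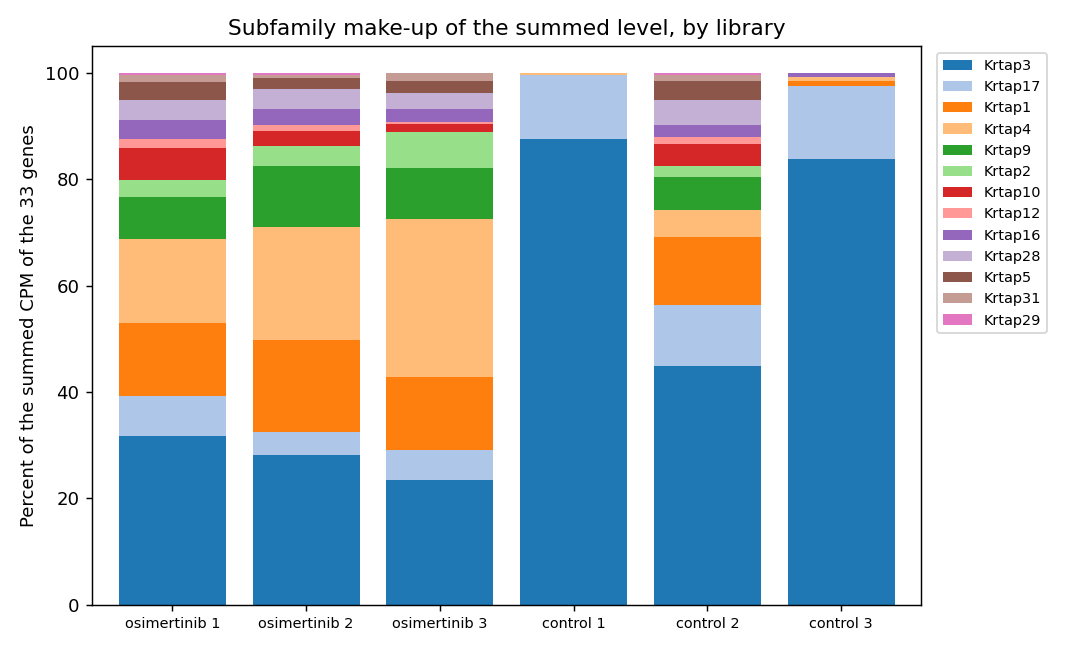
Percent of the summed CPM of the 33 genes that each Krtap subfamily contributes, 1 bar per library, osimertinib left and control right. Krtap3 and Krtap17 fill nearly all of controls 1 and 3, while control 2 has all the subfamilies found in osimertinib 1 and 2.

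Fold changes were also compared by cysteine content. Genes over 30% cysteine had a median log2 fold change of 5.91 (15 of 21 with separate groups) and those up to 30% a median of 5.09 (8 of 12). Over all genes tested, 10% had separate groups. Genes over 30% took 41.1%, 42.5% and 49.9% of the KAP sum in osimertinib libraries, against 12.4%, 33.8% and 14.4% in controls. In controls 1 and 3 these shares are set by 3 genes. Krtap17-1 was at 1.61 and 2.18 of the 1.69 and 2.29 CPM over 30%. Krtap3-2 alone was at 10.5 and 12.1 of the 11.9 and 13.6 CPM up to 30%, with Krtap3-3 nearly all of the rest. Across the 33 genes, Spearman's rho between the cysteine percentage and the ratio of osimertinib 3 to osimertinib 1 was 0.255, and with the ratio of osimertinib 2 to osimertinib 1 it was 0.158. These describe 33 genes read in the same libraries. The order of the genes by FPKM was alike in the libraries with enough counts, with rho of 0.816 to 0.941 between osimertinib libraries, and of 0.827, 0.737 and 0.643 between osimertinib 1, 2 and 3 and control 2.

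Hair shaft keratins, to which KAPs are bound in the shaft, and the 24 Krtap genes of chromosome 16 had the same order of libraries. The 15 listed hair keratins in the table summed to 1140, 5400 and 559 CPM in osimertinib libraries, against 31.8, 250 and 34.7 CPM in controls. All 15 had a log2 fold change above 0, 8 with separate groups and 0 called, with the smallest p for Krt39 (3.23 ± 0.59, SE) and Krt84 (3.57 ± 0.86). The chromosome 16 genes summed to 267, 2950 and 115 CPM in osimertinib libraries, against 0.341, 104 and 0.919 CPM in controls. All 24 were above 0, 16 with separate groups. Of 14 hair matrix regulators 12 were above 0, 11 with separate groups and 0 called, with the smallest p for the ligands Wnt5a (1.62 ± 0.19) and Wnt10b (3.61 ± 0.46). Over all genes tested, 46.8% were above 0, 10% had separate groups and 0.0% were called.

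The ratio of the 33 genes to the hair keratins depended on which KAP genes were counted. All 33 stood at 5.59%, 14.1% and 7.75% of the hair keratin sum in osimertinib libraries, against 42.9%, 11.5% and 45.8% in controls. The log2 difference was −1.73 (SD 0.68 in osimertinib and 1.12 in control libraries). Without Krtap3-2, Krtap3-3 and Krtap17-1 the percentages were 3.79, 11.1 and 6.06 in osimertinib libraries, against 0.226, 5.48 and 1.12 in controls. That difference was 2.50 (SD 0.77 in osimertinib and 2.3 in control libraries). Relative to the chromosome 16 genes, all 33 stood at 24%, 25.8% and 37.8% in osimertinib libraries, against 3990%, 27.7% and 1730% in controls. That log2 difference was −4.33, or −6.52 without control 2, and −0.0945 without the 3 named genes. For all 33 the SD of the log2 ratio was 0.35 in osimertinib and 3.84 in control libraries. The chromosome 16 sum was only 0.341 and 0.919 CPM in controls 1 and 3, and control 2 lay within the osimertinib range. Fold changes were above 0 for 7 of 8 other hair shaft proteins, for all 10 inner root sheath genes and for 6 of 7 melanocyte genes, with 0 called in each list. Over all genes tested, 46.8% were above 0 and 0.0% were called. The inner root sheath genes summed to 525, 4080 and 483 CPM in osimertinib libraries, against 7.5, 188 and 10.2 CPM in controls. The melanocyte genes summed to 180, 409 and 154 CPM in osimertinib libraries, against 31.1, 48.1 and 31.2 CPM in controls. The part of these cells in the KAP values was not tested.

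**Figure D5:**
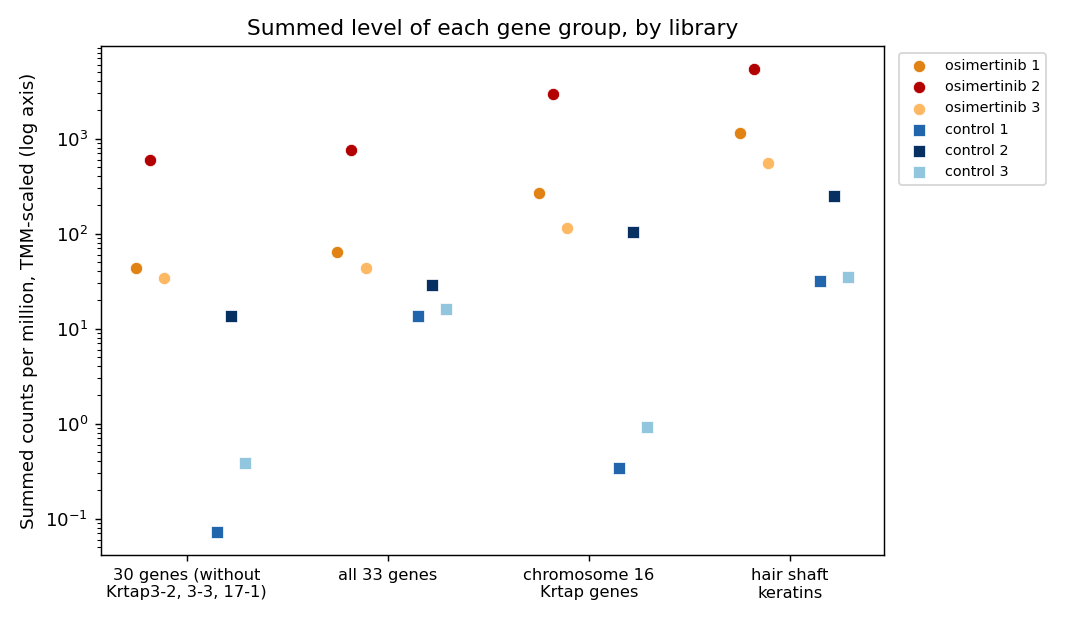
Summed CPM per library on a log axis for 30 of the KAP genes, for all 33, for the chromosome 16 Krtap genes and for 15 hair shaft keratins, with osimertinib (circles) left of control (squares). Control 2 is the highest control in every group, and controls 1 and 3 are far lower for the 30 genes than for all 33.

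Most of the genes also share a promoter feature that was not itself used in choosing them. They were chosen as a gene family, however, and some promoters are near copies, such as those of Krtap31-1 and Krtap31-2. The promoters counted below are therefore not independent of each other. A RefSeq promoter window on GRCm38.p6, 250 bases before to 50 after the annotated start, was found for 28 of the 33. The letters TATAAA stood on the sense strand within the 40 bases before the start in 21 of these 28 (75%), against 758 of 32851 windows of all genes (2.3%). On either strand of the whole 300-base window the shares were 92.9% and 13.6%. The 100 bases before the start are given for the 3 Krtap3 genes, for Krtap17-1 and for 2 others, with TATAAA in capitals.
Krtap3-1, chr11:99566631-99566730, minus strand: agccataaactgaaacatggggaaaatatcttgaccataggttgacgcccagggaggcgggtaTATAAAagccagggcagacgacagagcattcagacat
Krtap3-2, chr11:99556854-99556953, minus strand: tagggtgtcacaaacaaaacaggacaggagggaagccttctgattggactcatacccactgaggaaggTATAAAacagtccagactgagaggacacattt
Krtap3-3, chr11:99550864-99550963, minus strand: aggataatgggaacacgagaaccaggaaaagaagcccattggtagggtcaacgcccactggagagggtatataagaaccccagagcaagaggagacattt
Krtap17-1, chr11:99993995-99994094, minus strand: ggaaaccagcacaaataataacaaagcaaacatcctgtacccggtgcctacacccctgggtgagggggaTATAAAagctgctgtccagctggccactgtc
Krtap4-7, chr11:99644090-99644189, minus strand: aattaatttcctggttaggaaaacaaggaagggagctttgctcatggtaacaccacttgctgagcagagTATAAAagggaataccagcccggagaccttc
Krtap10-4, chr10:77827071-77827170, minus strand: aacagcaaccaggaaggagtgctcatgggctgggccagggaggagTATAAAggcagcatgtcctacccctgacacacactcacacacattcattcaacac
TATAAA begins 37 bases before the start in Krtap3-1, 32 in Krtap3-2, 31 in Krtap17-1 and Krtap4-7 and 55 in Krtap10-4. No match was found in the printed bases of Krtap3-3. Krtap3-1, with counts in 1 control, and Krtap3-2, with counts in all 3, thus both hold the motif. The letters TTTATTA were in 6 of 28 windows on either strand (21.4%, against 4.9% of all windows). CTTTGAA was in 3 (10.7%, against 5.1%), those of Krtap1-5, Krtap3-2 and Krtap3-3, and CTTTGTT in 4 (14.3%, against 5.9%). A match describes letters and not a bound site.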

How the data were processed

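Skin RNA-seq counts of 3 osimertinib and 3 control libraries were analysed, grouped by sample title. The submitters' processing notes name cutadapt 1.9 and the build GRCm38. Per the labels' protocols the kit marks strand and its adapters carry molecular identifiers. The sources used here do not name the aligner, counter or annotation, nor say whether strand and identifiers were used in counting. The table deposited by the authors holds raw whole-number counts per gene and, per the file headers, FPKM values. A further 6 columns match no sample and were not used.

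Genes with at least 10 counts in total over the 6 libraries were tested with the quasi-likelihood test of edgeR 4.0.16 (R 4.3.3), with TMM scaling, no covariate, two-sided p and Benjamini-Hochberg adjustment over all genes tested, with a threshold of 0.05. SE is |log2 fold change| / √F. A filter on mean FPKM would have dropped low members, so it served as an alternative. The steps were tested on simulated data. Sums over genes have no test. Alternatives were DESeq2 1.42.0, limma 3.58.1 on log2(FPKM + 1) and log2(FPKM + 0.1), other scalings and filters, a replicate block and leaving out each library. Named genes are the 3 with the highest mean FPKM of each subfamily, the 5 with the smallest p and the 3 with the lowest fold change, with the 2 of smallest p in the keratin and regulator lists. Krtap4-2, Krtap4-6, Krtap4-13, Krtap5-2 and Krtap5-3 are outside that rule and were named after their values were seen. Cysteine was counted from codons, since no protein table was at hand. The members and lists were chosen with earlier results of these data known. Leaving out 3 genes from sums, and the promoter motifs, were chosen after the data were seen.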

Additional observations from a re-analysis of the deposited data

How the results depend on the processing

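The number of the 33 genes called was 0 in edgeR under each scaling, filter and left-out library, with the replicate block, and in limma on both scales. DESeq2 called 5, beside 4.79% of all genes it gave an adjusted p, and it gave none for 14 of the 33. The median log2 fold change of 5.57 ran from 2.91 to 10.65 when 1 library was left out, and was 1.61 with limma on log2(FPKM + 1) and 3.58 on log2(FPKM + 0.1), where a pseudocount shrinks low genes by construction. Over the scalings, filters and left-out libraries, separate groups were seen in 18 to 31 genes. The 18 are of the 23 genes left with a mean FPKM of at least 1 (11.3% of all genes), and the 31 are without osimertinib 3 (14.9% of all genes). Without Krtap3-2, Krtap3-3 and Krtap17-1, an alternative added after the data were seen, the summed level differed by 7.04 in place of 2.80, the ratio to hair keratins by 2.50 in place of −1.73, and the ratio to chromosome 16 genes by −0.0945 in place of −4.33. With all 33 genes and 1 library left out, these 3 differences ran from 1.52 to 3.59, from −2.38 to −1.39 and from −6.52 to −2.94. The 7.04 and the −4.33 rest on sums in controls 1 and 3 that are far below that of control 2. Of 28 named genes, the sign turned only for Krtap3-2 without osimertinib 2 (−0.66, with a range of −0.66 to 1.68 over the left-out libraries).

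Same-numbered libraries did not deviate together (r of 0.061, −0.00242 and −0.0659), so no pairing by number was seen. With deviations taken from means of 3 libraries, these values cannot exclude a pairing. With the replicate block 0 of the 33 genes were called, their median was 5.73, and 29 had an unadjusted p under 0.05 (8.67% of all genes), against 25 without the block (11.4% of all genes). Depth limits the lowest genes: 10 of the 33 had fewer than 10 counts in all controls together, and 3 had none.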
